A study of Mus musculus with 2 samples.

Results

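The genes of the proteasome, the protease complex that degrades ubiquitin-tagged proteins, were examined in mouse fetal liver. Members were all protein-coding genes whose symbol begins with Psma, Psmb, Psmc, Psmd, Psme, Psmf or Psmg, which gave 50 of the 21474 protein-coding genes in the tables. Of these, 49 encode proteasome subunits, alternative subunits, activators, inhibitors or assembly factors. The remaining one, Psmc3ip, matches by symbol only and encodes a meiotic recombination factor. Total RNA longer than 200 nt was sequenced from healthy liver of B6NCrl mouse embryos at day 13.5, with male and female embryos pooled, and no allele, agent or treatment is named in the labels. The series holds 1 group of 2 biological replicates, which are separate tissue samples under a shared donor entry. Each library was made from 10 ng of RNA with spike-in RNAs added. With 1 group no condition could be tested, so values are given per library or as mean ± SD (n = 2), and the SD measures only the spread between these samples.

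The 20S core is a barrel of alpha rings around beta rings, and Psmb6 (beta1), Psmb7 (beta2) and Psmb5 (beta5) carry the active sites. The 19S particle caps the barrel: its base holds the ATPases that unfold substrates, and its lid removes ubiquitin. In cells exposed to interferon, and constitutively in many lymphoid cells, Psmb9, Psmb10 and Psmb8 replace the standard catalytic subunits to form the immunoproteasome, which changes the peptides available to MHC class I.

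The libraries held 39182457 and 37432977 expected counts on annotated genes, of which 347001 and 328050 fell on the members. That was 0.886% and 0.876% of the counts. The tissue showed the expression of a blood-forming liver: the hepatoblast markers had a median of 2520 TPM (a transcript level corrected for length and library size) and 7 globin genes held 34.6% and 31.2% of the TPM on annotated genes. The members held 0.788% and 0.827% of that TPM, or 1.21% and 1.20% once the globins were left out. Lymphoid markers were nearly absent, with 0 of 4 genes at 1 TPM (52.1% of protein-coding genes). Their summed level was 0.77 and 0.68 TPM, and Cd3e had no count in either library. In whole tissue, fewer cells of a type and less RNA per cell cannot be told apart.

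Proteasome transcripts were abundant as a class. At least 1 TPM was reached in both libraries by 49 of the 50 members, against 52.1% of protein-coding genes. At 10 TPM the count was 45 of 50, against 27.9%, and at 100 TPM it was 34 of 50, against 4.92%. The exception was Psmb11, the thymus-specific beta5 form, with 0 counts in both libraries, which allows levels of up to 0.0191 and 0.0213 TPM (3 counts, counting error only). Between 1 and 10 TPM in at least 1 library lay Psmb9, Psma8, Psme2b and Psme4, that is an immune subunit, a testis subunit, a near copy of an activator gene and a large activator. All 31 standard genes of the 26S particle stood above 96.0% to 99.0% of protein-coding genes by mean TPM.

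**Figure D1:**
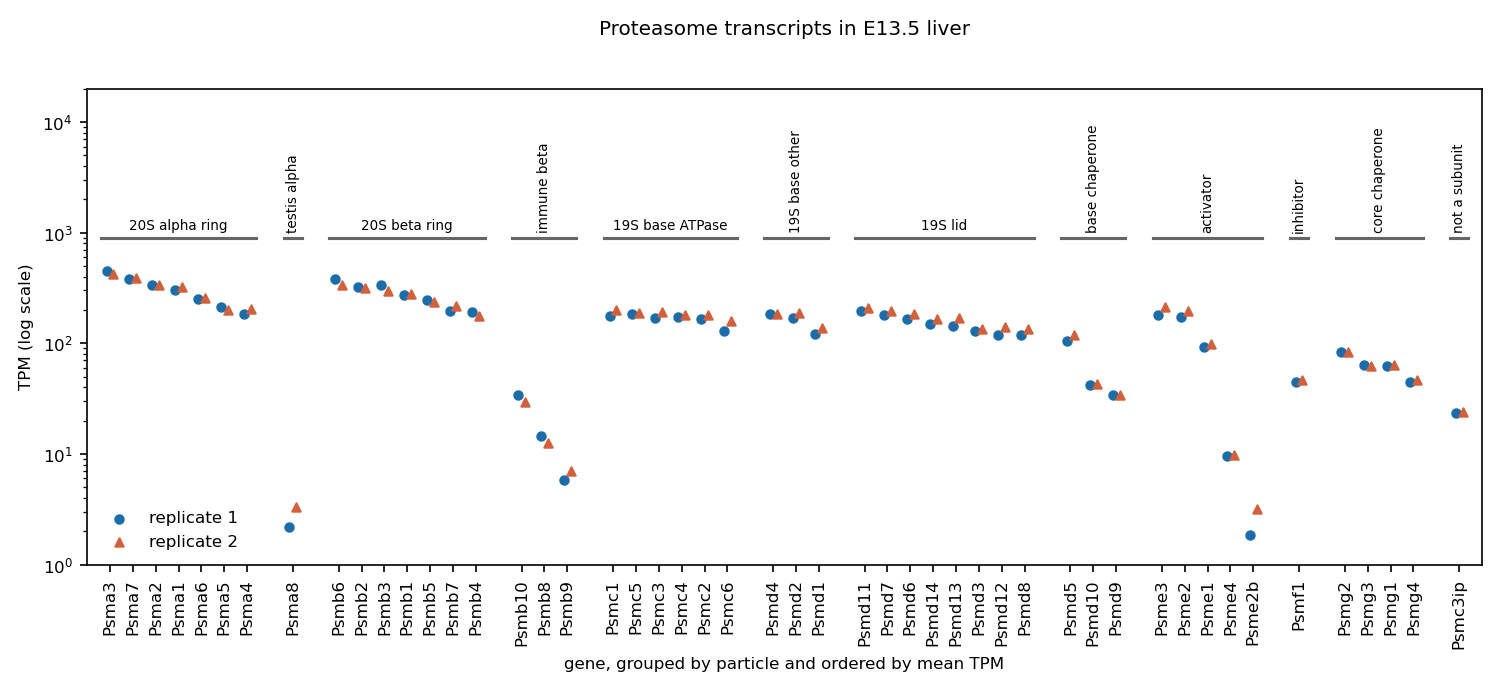
TPM (log scale) of each member in replicate 1 (circles) and replicate 2 (triangles), grouped by particle and ordered by mean TPM within it. Core and 19S subunits lie between 118 and 446 TPM, whereas the immune subunits lie between 5.83 and 34.0 TPM, and Psmb11, with 0 counts, is not drawn.

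The 20S core stood above the 19S particle. The median over the 14 standard core genes was 289.5 TPM in replicate 1 and 288.45 TPM in replicate 2 (289 ± 0.746). The median over the 9 base subunits was 176 ± 9.75 TPM and that over the 8 lid subunits 156 ± 14.1 TPM. The core median exceeded the median over all 17 subunits of the 19S particle 1.76-fold in replicate 1 and 1.60-fold in replicate 2, a log2 ratio of 0.75 ± 0.10, which is larger than the spread between the libraries. In each library 11 of the 14 core genes lay above every 19S gene. TPM divides reads by transcript length, and the core transcripts were the shorter ones, with a median of 967 nt against 1518 nt in the 19S particle. Without the division by length the log2 ratio of the medians was 0.04. Across the 31 genes, which share libraries and length scaling, Spearman's rho between length and mean TPM was -0.83.

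In the alpha ring, Psma3 (alpha7) was highest over all its transcripts, with 446 and 420 TPM in the libraries in turn. Protein-coding transcripts held 45.8% of its TPM, against 97.7% to 100% in the other genes of the ring. Psma4 (alpha3) was lowest by mean, at 183 and 202 TPM. The ring therefore covered a 2.25-fold range, and the median of its 7 genes was 314 ± 12.9 TPM. Psma5 (alpha5), at 214 and 200 TPM, lay close to Psma4, and the order of these 2 genes differed between the libraries. The other genes Psma2, Psma1 and Psma6 lay between 253 and 338 TPM. Psma7 (alpha4) reached 382 and 386 TPM. Its testis counterpart Psma8, which takes the alpha4 position in male germ cells, had 2.20 and 3.32 TPM from 133 and 180 counts. Psma7 thus exceeded Psma8 by 173-fold in replicate 1 and 116-fold in replicate 2.

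In the beta ring the 7 standard genes had a median of 276 ± 2.28 TPM and covered a 1.94-fold range. Psmb6, the caspase-like subunit, was highest by mean, and Psmb4 (beta7), which has no active site, was lowest at 190 and 177 TPM. Psmb3 (beta3) had 336 and 299 TPM, and Psmb2 (beta4) had 320 and 318 TPM. The 2 genes exchanged order between the libraries, so they did not differ beyond their spread. Standard catalytic and structural beta subunits did not form separate levels: Psmb6 led the ring by mean, whereas Psmb5 and Psmb7 lay below the structural Psmb2, Psmb3 and Psmb1 in both libraries.

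Transcripts of the catalytic subunits were mostly of the standard form, and protein was not measured. Psmb6 had 377 TPM in replicate 1 and 333 TPM in replicate 2, Psmb7 had 194 and 218 TPM, and Psmb5 had 245 and 238 TPM. Their sum was 803 ± 18.7 TPM. The 3 immune forms summed to 51.7 ± 4.00 TPM, so they made up 6.26% of the catalytic TPM in replicate 1 and 5.82% in replicate 2 (6.04% ± 0.308). By expected counts not divided by length the share was 8.13%.

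The 3 positions differed in how far the immune form lay below the standard one. Psmb10 (beta2i), the immune form with trypsin-like activity, was highest, with 34.0 and 29.3 TPM. It made up 13.4% ± 2.18 of the beta2 pair, and Psmb7 exceeded it 5.70-fold and 7.45-fold. The coding transcript Psmb7-201 had 189.28 and 189.39 TPM, whereas the retained-intron transcript Psmb7-202 had 4.82 and 28.8 TPM. Psmb8 (beta5i, chymotrypsin-like) had 14.6 and 12.6 TPM. It made up 5.33% ± 0.444 of the beta5 pair, and Psmb5 exceeded it 16.7-fold and 18.95-fold. Psmb9 (beta1i) was lowest, with 5.83 and 6.99 TPM from 221 and 222 counts. It made up 1.79% ± 0.376 of the beta1 pair, and Psmb6 exceeded it 64.7-fold and 47.7-fold. On the log2 scale the immune over standard ratios were -2.70 ± 0.27 at beta2, -4.15 ± 0.13 at beta5 and -5.80 ± 0.31 at beta1. The order beta2, beta5, beta1 held in both libraries, and the gaps between neighbours exceeded the spread between replicates. Among protein-coding genes, Psmb10 stood above 85.6%, Psmb8 above 75.1% and Psmb9 above 65.5%, whereas the 3 standard forms stood above 97.7% to 98.8%.

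**Figure D2:**
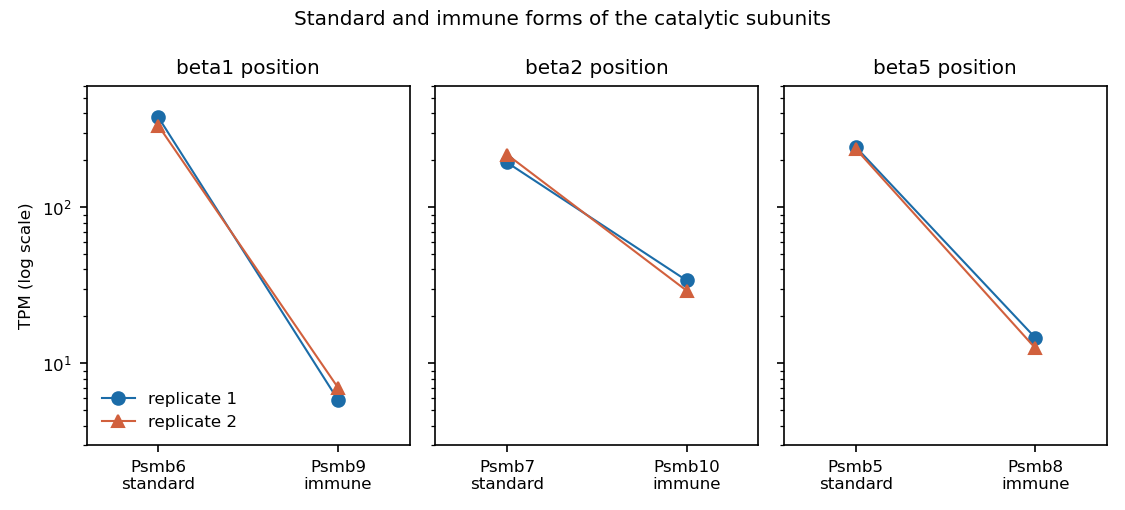
TPM (log scale) of the standard and the immune catalytic subunit at the beta1, beta2 and beta5 positions, with 1 line per replicate. The immune form is lower at each position in both libraries, least so for Psmb10 (13.4% of its pair) and most for Psmb9 (1.79%).

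The standard and immune genes differ in genomic setting (GENCODE M21, GRCm38 assembly). Psmb5 (ENSMUSG00000022193.6) lies on the minus strand at chr14:54614119-54618022, and Psmb11, which had no count, begins 3410 bp away on the opposite strand. Psmb6 (ENSMUSG00000018286.6) lies at chr11:70525367-70527858 on the plus strand and Psmb7 (ENSMUSG00000026750.5) at chr2:38588036-38644087 on the minus strand. Psmb8 (ENSMUSG00000024338.10, chr17:34197721-34201454, plus strand) and Psmb9 (ENSMUSG00000096727.1, chr17:34181987-34187764, minus strand) flank Tap1, a subunit of the peptide transporter that feeds MHC class I. Tap1 overlaps Psmb9 head to head by 212 bp and ends 495 bp before Psmb8, and Tap2 follows 2072 bp after Psmb8. Tap1 had 2.23 and 2.94 TPM and Tap2 had 5.09 and 5.48 TPM, so both lay below Psmb8 and Psmb9 in each library. Psmb10 (ENSMUSG00000031897.8) lies apart from this cluster, on the minus strand at chr8:105935735-105938444. Whether counting used strand is not given, so reads of Psmb9 and Tap1 in the shared stretch cannot be told apart. Exons of Psmb7, Psmc3, Psmd13, Psme1 and Psmc3ip also overlap a gene on the other strand, with levels of 9.52 to 30.4 TPM for those genes. Pseudogenes listed for Psmb5, Psmb6 and Psmb7 had at most 0.23 TPM.

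Standard proteasome genes are known targets of Nfe2l1 and Nfe2l2, which bind the antioxidant response element, and immune subunit genes are known targets of interferon signalling and of Irf1. Sequences before the RefSeq starts of the standard catalytic genes Psmb5 and Psmb6, of the assembly factor Psmd9 and of immune Psmb8 are shown because they hold the letters of such elements (RefSeq, GRCm38.p6, strand of the gene). Capitals mark TGACNNNGC, the antioxidant response element, in the first 3 and TTCNNNGAA, the gamma-activated sequence, in the last. The stretches are Psmb5 at chr14:54618023-54618145 (minus), Psmb6 at chr11:70525207-70525356 (plus), Psmd9 at chr5:123228040-123228189 (plus) and the site of Psmb8 at chr17:34198088-34198116 (plus). RefSeq and GENCODE M21 place the start differently in each of these genes. The stretches of Psmb5 and Psmb6 lie outside the M21 genes, but their distances to the M21 starts differ from those to the RefSeq starts. The Psmb8 site lies after the M21 gene start, and 250 bases of the RefSeq window of Psmb8 lie in M21 exons. The Psmd9 stretch lies inside the M21 gene but outside its exons.
Psmb5: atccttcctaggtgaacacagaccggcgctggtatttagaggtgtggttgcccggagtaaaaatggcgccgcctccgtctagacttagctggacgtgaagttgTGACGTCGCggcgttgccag
Psmb6: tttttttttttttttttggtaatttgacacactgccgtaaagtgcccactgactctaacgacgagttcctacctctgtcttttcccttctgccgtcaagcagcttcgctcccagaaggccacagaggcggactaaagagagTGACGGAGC
Psmd9: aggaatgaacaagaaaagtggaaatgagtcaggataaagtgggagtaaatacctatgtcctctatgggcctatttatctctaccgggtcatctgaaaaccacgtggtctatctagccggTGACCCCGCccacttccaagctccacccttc
Psmb8: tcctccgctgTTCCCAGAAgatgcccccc

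The first base of the match lay 47 bases before the RefSeq start in Psmb5, 9 bases in Psmb6, 31 bases in Psmd9 and 97 bases in Psmb8, whose match is within the gene by M21. RefSeq windows from 250 bases before to 50 bases after the start were matched for 42 of the 50 members by symbol, and all motifs were searched on both strands. TGACNNNGC was present in 6 of the 42 (14.3%; Psmb5, Psmb6, Psmc6, Psmd12, Psmd9 and Psme4), against 14% of all 27025 windows. TTCNNNGAA was present in 3 (7.14%; Psmb8, Psmd2 and Psmg1), against 9.55%. The interferon-stimulated response element was present in 5 (11.9%; Psmb3, Psmd4, Psmd9, Psme1 and Psmg4), against 3.99%. Of these, Psme1 belongs to the interferon-inducible activator, and none is one of the 3 immune catalytic subunits. CCAAT was present in 15 (35.7%), against 41.1%, and the GC box GGGCGG in 23 (54.8%), against 38.2%. CCAAT was in 6 of the 11 core windows and 4 of the 14 windows of the 19S particle, whereas GGGCGG was in 5 and 10 of them. These matches describe letters in a window and no binding.

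Within the 19S particle, levels were more even than in the core. The 6 ATPases of the base ran from Psmc1 (Rpt2), at 178 and 198 TPM, down to Psmc6 (Rpt4), at 129 and 159 TPM. Psmc5, Psmc3, Psmc4 and Psmc2 lay between 165 and 190 TPM, and the range of mean levels was 1.30-fold. Among the other base subunits, the ubiquitin receptor Psmd4 (Rpn10) had 182 and 183 TPM, the scaffold Psmd2 (Rpn1) had 168 and 189 TPM, and the scaffold Psmd1 (Rpn2) had 121 and 139 TPM. In the lid, Psmd11 (Rpn6) was highest at 196 and 209 TPM and Psmd8 (Rpn12) lowest by mean at 119 and 134 TPM. Psmd7, Psmd6, Psmd13, Psmd3 and Psmd12 lay between 118 and 195 TPM. Psmd14 (Rpn11), the deubiquitinase of the lid, had 149 and 165 TPM. Over all 17 genes the range was 1.60-fold and the SD of log2 mean TPM was 0.22. The same SD was 0.39 over the 14 core genes and 2.15 over all protein-coding genes at 1 TPM or more.

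The chaperones of the Psmd and Psmg families were lower than the particles they help to build. The base chaperones are Psmd5 (S5b), at 105 and 119 TPM, Psmd10 (gankyrin), at 41.9 and 42.4 TPM, and Psmd9 (p27), at 34.1 TPM in both libraries. All 3 lay below every 19S subunit in both libraries. The 4 core chaperones, which guide alpha ring formation, had a median of 62.5 ± 0.244 TPM. Psmg2 (PAC2) was highest at 84.0 and 83.6 TPM and Psmg4 (PAC4) lowest at 45.0 and 46.2 TPM, with Psmg3 and Psmg1 between 61.6 and 63.5 TPM. All 4 lay below every standard core and 19S subunit in both libraries.

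The alternative caps differed in level. Psme3 (PA28gamma), the nuclear activator, had 178 and 213 TPM. Psme2 (PA28beta), a subunit of the interferon-inducible activator, had 174 and 195 TPM, and its partner Psme1 (PA28alpha) had 92.7 and 99.2 TPM. These 2 lie 5911 bp apart on chromosome 14, and Psme2 exceeded Psme1 1.87-fold and 1.96-fold in TPM. Protein-coding transcripts held 73.2% of the TPM of Psme2 and 88.2% of that of Psme1. The expected counts lay closer together, at 4162 and 3703 for Psme2 and 3352 and 3313 for Psme1. The mean of Psme1 and Psme2 lay below Psme3, with log2 ratios of -0.42 and -0.53 (-0.48 ± 0.08), and -0.80 when only protein-coding transcripts were summed. Psme2 thus lay within the range of the 19S subunits and Psme1 below it, and both lay above all 3 immune catalytic subunits. Psme4 (PA200), the large activator, had 9.66 and 9.78 TPM, and Psme3 exceeded it 18.5-fold and 21.8-fold. Psmf1 (PI31), known as an inhibitor of the core, had 44.3 and 46.3 TPM. Psme2b, a near copy of Psme2, had 1.83 and 3.20 TPM. Its 51.2 and 80.4 expected counts are uncertain, since reads shared with Psme2 had to be divided, and the authors' posterior SD was 8.38% and 6.17% of the count. Psmc3ip, the symbol match, had 23.6 and 24.1 TPM.

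Most members were read as a single dominant transcript. Of the 49 members at 1 TPM, 39 had several annotated transcripts. By TPM the same transcript led in both libraries for 39 of these 39, against 91.0% of comparable protein-coding genes. By shares of expected counts it was 38 of the 39. The median share of the leading transcript was 94.2%, against 72.1% over such genes. The leading transcript held under 60% in 6 of the 39, against 35.6%. Protein-coding transcripts held over 95% of the TPM in 37 members and under 80% in 5.

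The 6 exceptions included Psma3, the highest member. In Psma3 the coding transcript Psma3-204 held 37.8% ± 2.99 of the TPM and the retained-intron transcript Psma3-203 held 31.2% ± 2.36. Transcripts of the nonsense-mediated decay class held a further 22.3% ± 2.43, so the rank of Psma3 as highest member rests on transcripts not annotated as coding. All its protein-coding transcripts together held 45.8% ± 0.241 of its TPM, and Psma3-204 alone had 159 and 167 TPM. In Psmb4 the coding Psmb4-201 held 54.9% ± 4.39 and the retained-intron Psmb4-202 held 42.7% ± 4.05. In Psmd13 (Rpn9), a lid subunit, Psmd13-201 held 49.6% ± 6.21 and the decay-class Psmd13-211 held 25.9% ± 2.32. Transcripts not in M21, of unknown class, held a further 18.4% ± 6.07 and were not counted as coding. In Psme2 the coding transcripts Psme2-201 and Psme2-208 held 41.7% ± 3.02 and 31.2% ± 4.18. A retained-intron transcript of 185 nt, Psme2-203, held 23.7% ± 7.63 of the TPM of Psme2 but 3.48% of its counts. Psmd4 was split between coding transcripts, with 48.0% ± 0.301 in Psmd4-201 and 46.2% ± 0.235 in Psmd4-202. Psmc3ip was the single member led by a transcript not annotated as coding, the retained-intron Psmc3ip-202 at 53.1% ± 9.08, against 8.15% of comparable genes.

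Among the immune subunits, Psmb10 had 1 transcript. Psmb8 was read as Psmb8-203 (65.1% ± 4.05) and the longer Psmb8-201 (34.7% ± 3.85), both coding. By counts the order turned, with 46.7% in Psmb8-203 and 53.1% in Psmb8-201. Psmb9-204 held 63.2% ± 7.51 and the shorter coding Psmb9-202 held 31.0% ± 6.48. Protein-coding transcripts thus made up nearly all of the immune subunit signal, with the lowest share, 94.5% ± 1.28, in Psmb9.

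**Figure D3:**
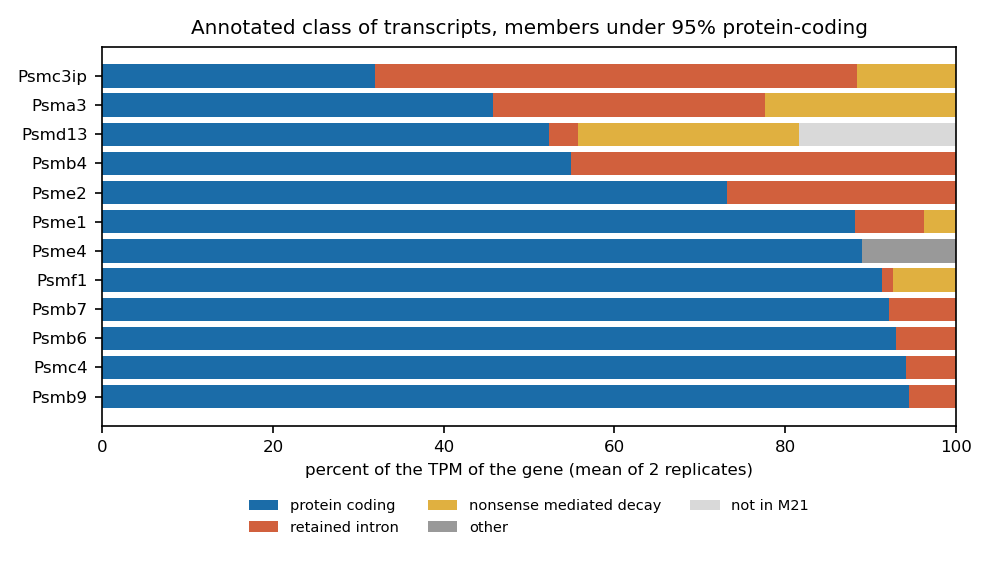
Mean share (percent of the TPM of the gene, 2 replicates) of each annotated transcript class in the members with under 95% protein-coding TPM. Psmc3ip, Psma3, Psmd13, Psmb4 and Psme2 lie below 80% coding, with retained-intron transcripts as the main other class in Psmc3ip, Psma3, Psmb4 and Psme2 and nonsense-mediated decay in Psmd13.

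The replicates were compared on expected counts after TMM scaling, for the 49 members with a mean count of at least 10. No member differed more than 2-fold, against 2.76% of the 15997 genes with such a ratio (1.20% higher and 1.56% lower). The median log2 ratio of replicate 2 over replicate 1 was -0.11, with 13 members above 0 (49.7% of all genes were above 0) and 36 below (50.3%). On the TPM scale the median was 0.06, where the median over all genes was 0.15. There 38 members were higher in replicate 2, against 72.2% of all genes. The direction of the members thus differed between the scales. Their median lay below that of all genes on both, but their count did not.

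The offset was larger in the core than in the 19S particle. All 14 standard core genes had ratios below 0 (50.3% of all genes) on TMM counts, with a median of -0.16, and the lowest was Psmb6 at -0.34. Of the 17 genes of the 19S particle, 8 lay above 0 and 9 below, with a median of -0.03. By TPM, 7 of the 14 core genes and 17 of the 17 genes of the 19S particle were higher in replicate 2 (72.2% of all genes). The core median lay below the 19S median by a log2 difference of -0.13 on TMM counts and -0.16 in TPM. Transcript length moved with the ratio: Spearman's rho was 0.80 across these 31 genes, which share both libraries, and 0.28 across all 15997 genes. After the median ratio of genes of similar length was subtracted, the core median was -0.02, with 3 genes above 0 and 11 below, and the difference between core and 19S was -0.02. The median over all members was then -0.01, with 19 above 0 and 30 below (50% of all genes each way). Marker levels also moved between the libraries. The 8 erythroid markers had a median log2 ratio of -0.26, with 1 of 8 above 0 and summed levels of 337450 and 300760 TPM. The 4 heart markers had a median of 1.52, with 4 of 4 above 0 and sums of 36.3 and 87.0 TPM. The part of these markers in the ratios was not tested.

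**Figure D4:**
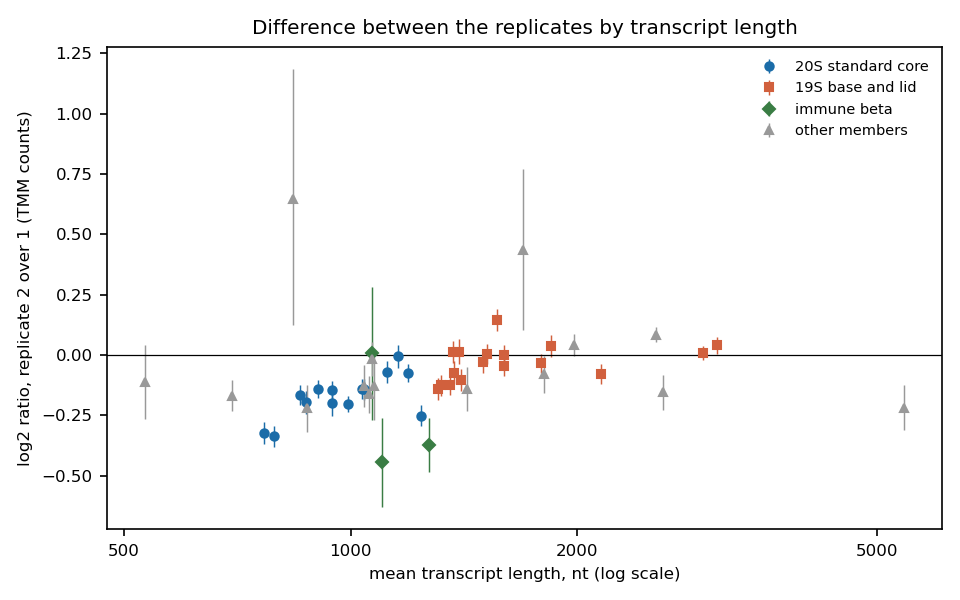
Log2 ratio of replicate 2 over replicate 1 (TMM-scaled counts) of each member against mean transcript length (nt, log scale), with bars for the exact 95% counting interval. The 14 core genes lie between -0.34 and 0 at short lengths and the 19S genes scatter around 0 at longer ones.

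The 3 largest absolute ratios among members with at least 100 counts belonged to alternative subunits. The standard subunits Psmb6 (-0.34) and Psmb3 (-0.32) followed closely. Psmb8 was lower in replicate 2, with 567 and 417 counts, a log2 ratio of -0.44 (fold 0.735, exact 95% counting interval 0.646 to 0.836). Psma8 was higher, at 0.43 (fold 1.35, interval 1.08 to 1.71). Psmb10 was lower, with 1509 and 1166 counts, at -0.37 (fold 0.772, interval 0.715 to 0.834). Psmb9 had a ratio of 0.01 (fold 1.01, interval 0.830 to 1.22), and its interval overlapped the upper ends of those of Psmb8 and Psmb10. After the length correction the values were -0.34 for Psmb8, -0.27 for Psmb10, 0.14 for Psmb9 and 0.47 for Psma8. Psme4, at -0.31, then lay farther from 0 than Psmb10. On TMM counts without the length correction, the leukocyte markers had 3 of 6 genes above 0. Their ratios ran from -0.41 (Spi1) and -0.26 (Coro1a) to 0.13 (Cd74), with summed levels of 156 and 157 TPM. Their part in the ratios of Psmb8 and Psmb10 was not tested. Psme2b, below the count limit, had the largest value of all members, 0.64 with an interval of 1.09-fold to 2.27-fold.

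Genes that work with the proteasome were read beside it. Partners outside the symbol rule had a median of 119 ± 1.80 TPM, with 9 of 9 measured genes at 1 TPM or more (52.1% of protein-coding genes). Paaf1 was not analysed here. Pomp, the maturation factor of the core, had 227 and 234 TPM, the ubiquitin receptor Adrm1 137 and 143 TPM, and the deubiquitinase Usp14 127 and 150 TPM. Pomp thus lay within the range of the core subunits, and Adrm1 and Usp14 within that of the 19S subunits. The ubiquitin supply and shuttle list had a median of 81.8 ± 9.75 TPM, with 14 of 14 genes at 1 TPM or more (52.1%). The genes named from it encode ubiquitin itself: Ubb at 1383 ± 17.8 TPM and the ribosomal fusion Rps27a at 885 ± 36.2 TPM.

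Regulators of the standard genes lay well below those genes. Their list had a median of 18.4 ± 1.17 TPM, with 6 of 7 at 1 TPM or more (52.1% of protein-coding genes). It was led by Nfe2l2 (44.3 ± 6.01 TPM) and the small Maf partners Mafk (38.8 ± 1.94 TPM) and Mafg (35.8 ± 0.325 TPM), with Nfe2l1 at 17.9 ± 0.460 TPM. The third small Maf, Maff, had 0.85 and 0.97 TPM. The list for immune subunits had a median of 12.7 ± 0.972 TPM, with 8 of 10 at 1 TPM or more (52.1%). Receptor chains led it, with Ifnar2 at 63.2 ± 3.90 TPM and Ifngr1 at 37.6 ± 2.23 TPM. The ligand gene Ifng had 1 count in replicate 1 and 0 in replicate 2. Nlrc5, the transactivator of MHC class I genes, had 0.04 and 0.06 TPM. Receptor transcripts of interferon signalling were therefore detected, whereas Ifng and Nlrc5 were near 0.

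The MHC class I loading genes had a median of 65.0 ± 1.76 TPM, with 10 of 10 at 1 TPM or more (52.1% of protein-coding genes). General chaperones were highest, with Calr at 504 ± 64.9 TPM and Pdia3 at 292 ± 52.4 TPM, beside the light chain B2m at 317 ± 38.2 TPM. The transporter genes Tap1 (2.59 ± 0.502 TPM) and Tap2 (5.29 ± 0.276 TPM) were the lowest of the list and lay below Psmb9 in both libraries. The leukocyte markers were at 1 TPM or more in 6 of 6 genes (52.1% of protein-coding genes). Coro1a led these markers at 68.2 ± 4.04 TPM, and Ptprc, which defines leukocytes, had 5.04 and 5.47 TPM. The part of the leukocyte markers in the levels of the immune subunits was not tested.

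**Figure D5:**
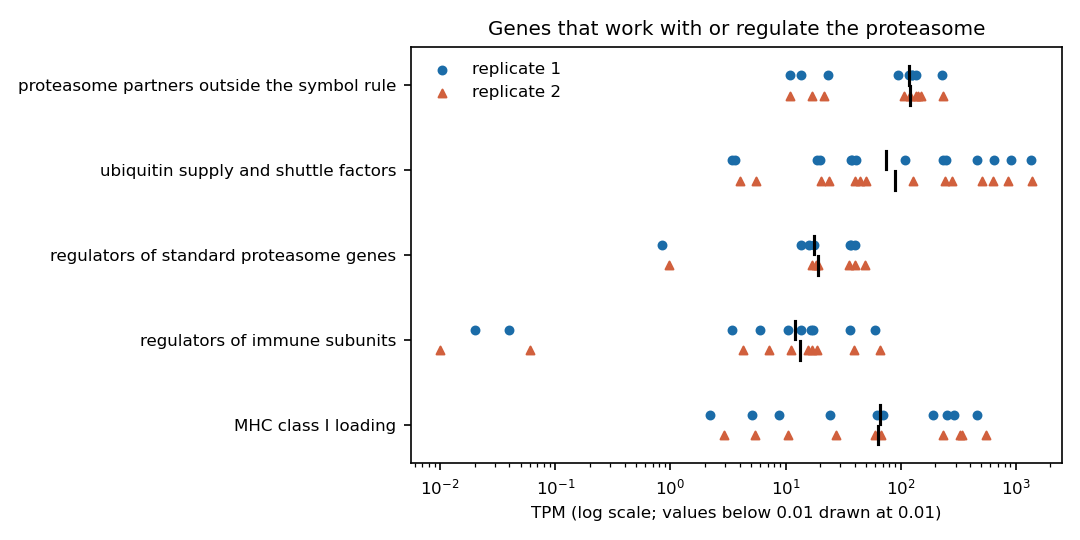
TPM (log scale) of each gene of the 5 related lists in replicate 1 (circles) and replicate 2 (triangles), with the median of each library as a vertical bar and values below 0.01 TPM drawn at 0.01. Partners of the proteasome have the highest median (119 TPM) and regulators of immune subunits the lowest (12.7 TPM), with Ifng and Nlrc5 far to the left.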

How the data were processed

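Expected counts, estimates of reads per gene and per transcript in which reads that match several genes are divided, were deposited by the authors on mm10 with GENCODE M4, per the deposited readme. Per the file headers each gene table also holds TPM, normalised by the authors over all entries, a posterior mean TPM, and the posterior SD of each count, a signal-type value. Aligner, quantifier and strand use: not given in the sources used here.

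Symbols, transcript classes and coordinates came from GENCODE M21 by gene ID (42462 of 43346 annotated genes matched). Members and lists were chosen with earlier results of these data known. Named genes were the highest and lowest of each particle, catalytic subunits and their counterparts, activators, inhibitors, members below 1 TPM, the 3 largest replicate ratios with at least 100 counts, and the 3 highest and the sub-1-TPM genes of each list. Genes outside that rule (Psma5, Psma7, Psmb1, Psmb2, Psmb3, Psmd2, Psmd10, Psmd14, Nfe2l1, Tap1, Tap2 and the single marker genes) were named after their values were seen. A few genes that the rule names are not reported here. Transcript splits are given for leading shares under 60%, for Psmd4 and, chosen after seeing the values, for Psmb7 and the immune subunits.

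Replicate ratios are log2 of counts plus 0.5 less the TMM factor (edgeR 4.0.16, R 4.3.3) where the mean count reached 10. DESeq2 1.42.0 size factors were an alternative, with expected counts rounded to whole numbers for both tools. Counting intervals are exact 95% binomial intervals, and with the floor of 3 counts they cover counting error only. The length correction subtracts medians of 20 length bins and was added after seeing the data. On simulated counts for replicate 2 over replicate 1, true log2 changes of 1 and -1 (100 genes each) gave medians of 1.01 and -1.05. Other steps used Python 3.11.15 with pandas 2.3.3, numpy 2.4.6 and scipy 1.17.1.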

Additional observations from a re-analysis of the deposited data

How the results depend on the processing

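Posterior mean TPM gave a core median of 284.54 TPM. Summing only protein-coding transcripts, without those not in M21, gave a core median of 264.48 TPM and a lid median of 141.39 TPM. It gave a core over 19S log2 ratio of 0.63 and a PA28 over Psme3 log2 ratio of -0.80. Including tissue and immune forms gave a 20S median of 241.38 TPM. Expected counts without length, chosen after seeing the data, gave 0.037 for core over 19S and 8.13% for the immune share, since the transcripts differ in length. Across replicates, the members' median was 0.064 by TPM ratios, the opposite sign, and -0.68 under spike-in scaling, which placed 1 member beyond 2-fold and shifted all genes by -0.56. With either replicate left out, the ranges were 288.45 to 289.5 TPM (core), 169.02 to 182.81 TPM (base), 146.43 to 166.35 TPM (lid), 0.68 to 0.81 (log2 core over 19S), 5.82% to 6.26% (immune share), -4.24 to -4.06 (log2 Psmb8 over Psmb5), -6.02 to -5.58 (Psmb9 over Psmb6), -2.90 to -2.51 (Psmb10 over Psmb7) and -0.53 to -0.42 (PA28 over Psme3), and 49 members stayed at 1 TPM or more. No paired analysis was possible because there is 1 group. Depth limits Psma8, Psmb9 and Psme2b, with 51.2 to 222 counts a library, and with 2 libraries each SD is itself imprecise.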
